A study of Homo sapiens with 18 samples.

Results

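The p53 pathway genes examined here are 30 genes listed by symbol as feedback regulators and transcriptional targets of the tumour suppressor p53. All 30 had an entry in each of 4 deposited tables, 3 of RNA sequencing and 1 of RNA immunoprecipitation, which held 16532, 57351, 57351 and 20233 distinct genes. The series addresses the RNA-binding splicing factor RBM39 in multiple myeloma, a cancer of plasma cells. H929 and MM1S, both established human myeloma lines, carried a short hairpin RNA (shRNA) against RBM39 (shRBM39) or a scramble hairpin, with 3 libraries per group in H929 and 2 per group in MM1S. MM1S cells were also treated with indisulam, a small molecule that recruits RBM39 to the DCAF15 ubiquitin ligase for degradation, or with DMSO as vehicle, with 3 libraries per group. The last pair of libraries was an immunoprecipitation of RNA with an anti-RBM39 antibody in MM1S cells (RBM39 RIP) and its IgG control, with 1 library each. The labels give no dose, no duration, no hairpin sequence and no statement that replicates came from separate cultures, so each p-value measures the spread between these libraries, which may be technical. Each line comes from a single patient's tumour and grows outside its marrow. In bulk RNA, fewer cells of a type and less RNA per cell cannot be told apart.

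As background, p53 is a transcription factor that is kept low in unstressed cells by the ubiquitin ligase MDM2 and held inactive by its relative MDM4. DNA damage and other stress release it, and it then binds target promoters through pairs of short half-sites and switches on genes for cell cycle arrest, DNA repair, death receptors and its own inhibitors.

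Several target genes carry recognisable p53 half-sites close to their start, and windows are shown for the genes with an adjacent pair of half-sites and for those with a half-site that were called in an MM1S comparison below. RefSeq promoter windows (GRCh38.p14, 250 bases before to 50 bases after an annotated start) were found for 24 of the 30 genes. FBXO22, TNFRSF10A, TNFRSF10B, PHLDA3, TP53INP1 and GADD45A had no window in the table used. The published p53 half-site, 10 bases long and its own reverse complement, occurred without a mismatch in a window of 8 of the 24 genes (33.3%), against 8.06% of all 27305 genes with windows. These 8 were AEN, DDB2, EI24, FAS, FDXR, PLK2, RPS27L and SESN1. A directly adjacent pair of half-sites with at most 2 letters off was found for MDM2, FAS, AEN and DDB2, against 0.359% of all genes. Such a match describes letters and is not a measured binding site, and windows can overlap where a gene has several starts. In the windows below, written 5′ to 3′ on the gene's strand, capitals mark exact half-sites, and for MDM2 the adjacent pair, whose first base lies 94 bases before the start. For FAS, AEN and DDB2 the inexact half-site of the adjacent pair is left in lower case. The DDB2 half-sites in capitals are not directly adjacent to each other and are not that pair.
MDM2, chr12:68808767-68809066, plus strand: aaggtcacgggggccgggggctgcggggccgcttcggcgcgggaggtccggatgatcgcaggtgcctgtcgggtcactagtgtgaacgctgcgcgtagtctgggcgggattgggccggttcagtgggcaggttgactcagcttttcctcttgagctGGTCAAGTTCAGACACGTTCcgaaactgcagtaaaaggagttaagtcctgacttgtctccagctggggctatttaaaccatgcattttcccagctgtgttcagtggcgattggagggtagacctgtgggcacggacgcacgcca
FAS, chr10:88991181-88991480, plus strand: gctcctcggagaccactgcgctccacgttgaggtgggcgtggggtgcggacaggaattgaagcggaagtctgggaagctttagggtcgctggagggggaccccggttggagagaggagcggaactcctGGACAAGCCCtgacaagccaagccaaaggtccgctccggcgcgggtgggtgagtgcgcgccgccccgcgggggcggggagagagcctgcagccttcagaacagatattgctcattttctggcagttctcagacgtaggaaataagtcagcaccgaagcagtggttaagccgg
AEN, chr15:88621090-88621389, plus strand: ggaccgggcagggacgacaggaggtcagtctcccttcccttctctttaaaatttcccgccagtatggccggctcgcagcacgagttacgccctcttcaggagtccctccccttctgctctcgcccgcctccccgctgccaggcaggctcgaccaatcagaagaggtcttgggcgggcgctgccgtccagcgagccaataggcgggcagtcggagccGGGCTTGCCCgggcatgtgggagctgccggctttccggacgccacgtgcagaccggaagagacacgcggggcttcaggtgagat
DDB2, chr11:47214724-47215023, plus strand: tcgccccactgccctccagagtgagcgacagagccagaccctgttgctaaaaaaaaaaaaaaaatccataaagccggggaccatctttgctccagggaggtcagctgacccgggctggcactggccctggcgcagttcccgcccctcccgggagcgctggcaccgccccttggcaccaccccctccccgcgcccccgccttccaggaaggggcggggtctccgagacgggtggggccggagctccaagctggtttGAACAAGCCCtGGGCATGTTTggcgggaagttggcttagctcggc
RPS27L, chr15:63157428-63157727, minus strand: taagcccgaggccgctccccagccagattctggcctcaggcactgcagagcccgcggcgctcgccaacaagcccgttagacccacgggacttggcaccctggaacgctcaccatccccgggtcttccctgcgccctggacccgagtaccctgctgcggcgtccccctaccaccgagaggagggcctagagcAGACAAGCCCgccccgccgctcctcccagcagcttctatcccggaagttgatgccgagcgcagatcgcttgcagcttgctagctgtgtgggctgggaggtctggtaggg
PLK2, chr5:58460037-58460336, minus strand: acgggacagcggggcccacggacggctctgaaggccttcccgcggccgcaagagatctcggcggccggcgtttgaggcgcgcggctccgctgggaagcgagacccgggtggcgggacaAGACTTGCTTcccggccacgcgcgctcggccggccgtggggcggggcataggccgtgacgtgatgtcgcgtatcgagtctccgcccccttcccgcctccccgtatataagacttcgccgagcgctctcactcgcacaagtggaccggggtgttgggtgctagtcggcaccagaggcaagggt
SESN1, chr6:109008939-109009238, minus strand: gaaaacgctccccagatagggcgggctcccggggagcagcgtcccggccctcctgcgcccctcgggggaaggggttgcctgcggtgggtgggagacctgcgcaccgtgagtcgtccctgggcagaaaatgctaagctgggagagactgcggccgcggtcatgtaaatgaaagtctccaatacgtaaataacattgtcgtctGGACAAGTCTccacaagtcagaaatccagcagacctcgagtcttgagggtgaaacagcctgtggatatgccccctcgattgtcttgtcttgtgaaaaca
EI24, chr11:125569227-125569526, plus strand: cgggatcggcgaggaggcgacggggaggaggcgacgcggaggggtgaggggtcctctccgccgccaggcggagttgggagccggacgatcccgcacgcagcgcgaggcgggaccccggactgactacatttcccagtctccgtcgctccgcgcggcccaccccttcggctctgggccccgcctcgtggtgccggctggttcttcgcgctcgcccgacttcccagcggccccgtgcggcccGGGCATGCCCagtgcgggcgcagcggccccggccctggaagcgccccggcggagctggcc

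Before the p53 genes were compared, RBM39 itself was read in every library. In MM1S, RBM39 measured 64.8 and 52.2 TPM in shRBM39 cells, against 176 and 205 TPM in scramble cells, a log2 difference of -1.69 (SE 0.161, adjusted p = 0.0119 by limma). That call was kept without the first shRBM39 library and lost without any other single library, at log2 differences of -1.84 to -1.54. In H929 it went against the labels, with 38.3, 38.6 and 35.6 FPKM in the libraries labelled shRBM39, against 4.56, 4.43 and 4.5 FPKM in those labelled scramble, a log2 difference of 2.81 (SE 0.055, adjusted p = 7.68e-13 by limma). The H929 groups are therefore named by their labels throughout, and no direction in H929 is read as an effect of RBM39 loss. With indisulam, which acts on the protein, RBM39 RNA measured 226, 217 and 149 TPM in indisulam-treated cells, against 189, 178 and 196 TPM in DMSO cells, and the groups overlapped, with a log2 difference of 0.05 (SE 0.16, adjusted p = 0.828 by limma). The third indisulam library stood apart, with 12523 genes at 1 TPM or more, against 13713 and 13718 in the other indisulam libraries. Its correlation with them, over genes at 1 TPM or more in any library of that experiment, was 0.955 and 0.959, against 0.976 between those libraries. Results are given with and without it. Plasma cell markers other than CD27, which stayed below 1 throughout, were detected in every library. The sum of all 11 was 4193 to 4435 FPKM in H929 libraries labelled shRBM39 against 2767 to 2945 FPKM in those labelled scramble. In MM1S it was 2318 to 3371 TPM with shRBM39 against 1988 to 2173 TPM with scramble, and 3318 to 3675 TPM with indisulam against 3955 to 4140 TPM with DMSO. Single markers went both ways. Of 10 tested by limma, 7 were called higher and 3 lower in H929, beside 24.1% and 48.1% of all genes. With all indisulam libraries 1 was higher and 4 lower, beside 8.47% and 21.5%. A list of 19 markers of other cell types summed to 38.4 to 41.5 FPKM in H929 libraries labelled shRBM39 against 85.5 to 97.1 FPKM in those labelled scramble, over the 15 markers in that table. In MM1S the sum was 34.2 to 55.9 TPM with shRBM39 against 57.2 to 58.5 TPM with scramble, and 41.9 to 59.6 TPM with indisulam against 43.0 to 47.8 TPM with DMSO. The part of these marker differences in the results below was not tested.

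In H929, nearly all p53 pathway genes were lower in the libraries labelled shRBM39. With limma on log2(FPKM + 1) and Benjamini-Hochberg adjustment over all 10360 genes tested, 27 of the 30 genes were lower at an adjusted p below 0.05, beside 48.1% of all genes. BTG2 alone was higher, beside 24.1% of all genes. The exceptions were POLH, which did not pass the test, and SPATA18, which was too low to be tested. The median log2 difference was -0.54 over the 29 tested genes and -0.13 over all genes, so the table as a whole was shifted downwards. The 3 libraries labelled shRBM39 lay below all 3 labelled scramble for 27 genes, beside 49.6% of all genes, and above them for BTG2, beside 25.1%. TNFRSF10A and TP53I3 lost their call in at least 1 of the 6 fits that each left out 1 library. FAS and GDF15 passed the filter on low values, 1 FPKM in at least 3 libraries, through the libraries labelled scramble alone. After scaling each library to its median, 20 of the 29 were lower, beside 32% of all genes, and 1 was higher, beside 38%. Those that were no longer called were MDM4, CCNG1, FBXO22, PLK2, TP53I3, TIGAR and TNFRSF10A, and the log2 differences of TNFRSF10A and POLH turned positive. Over all genes 2498 were higher and 4979 lower, against 3932 and 3312 after median scaling and 3567 and 3620 after quantile normalization.

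The shRBM39 libraries of MM1S showed a mixed picture with few calls. Among 29 genes tested on log2(TPM + 1), 4 were higher (ZMAT3, RPS27L, FAS and CD82), beside 4.03% of all 14122 genes tested. EI24 and POLH were lower, beside 6.38% of all genes. GDF15 was too low to be tested. Over all genes 569 were higher and 901 lower, and median scaling and quantile normalization left the member counts at 4 and 2. The 2 shRBM39 libraries lay above both scramble libraries for 14 genes, beside 30.5% of all genes, and below both for 6, beside 31.9%. The median log2 difference was 0.17 over the 29 genes and -0.00053 over all genes. CD82 was called in 1 of the 4 fits that each left out 1 library, the other 5 genes in none, and with no filter on low values none of the 6 and no other gene in the table was called. Without the second shRBM39 library or without either scramble library, 0 genes were called in the whole table, which also takes in every other call from the knockdown below.

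In indisulam-treated MM1S cells, the p53 pathway genes that passed the test were all higher. Of 28 genes tested, 11 were higher at an adjusted p below 0.05, beside 8.47% of all 13421 genes, and none was lower, beside 21.5%. The 11 were MDM2, MDM4, CCNG1, RPS27L, FAS, TNFRSF10B, AEN, PHLDA3, PLK2, GDF15 and SESN1, and GDF15 passed the filter through the treated libraries alone. For 0 lower genes by limma, the count at an unadjusted p below 0.05 was 2 (PERP and EI24). All 3 indisulam libraries lay above all 3 DMSO libraries for 13 genes, beside 14.9% of all genes, and below them for 2, beside 32.4%. The median log2 difference was 0.34 over the 28 genes and -0.05 over all genes. Without the third indisulam library 20 of 29 genes were higher, beside 37.9% of all genes, and PERP was lower, beside 27.9%, while the median log2 difference of all genes moved to 0.10. The 20 include ZMAT3 and GDF15, which passed the filter through the treated libraries alone. Over all genes 1137 were higher and 2882 lower, against 3024 and 2782 under quantile normalization and 2587 and 2954 under median scaling. Under these scalings 14 and 13 of the p53 pathway genes were higher and none lower. MDM2, CCNG1, GDF15, PHLDA3, PLK2, RPS27L and TNFRSF10B kept their call in each of the 6 fits that left out 1 library. MDM4, FAS, AEN and SESN1 kept it in 1 fit, the one without the third indisulam library. They lost it with no filter on low values, where 8 of the 30 genes were higher, beside 677 of all 28775 genes.

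**Figure D1:**
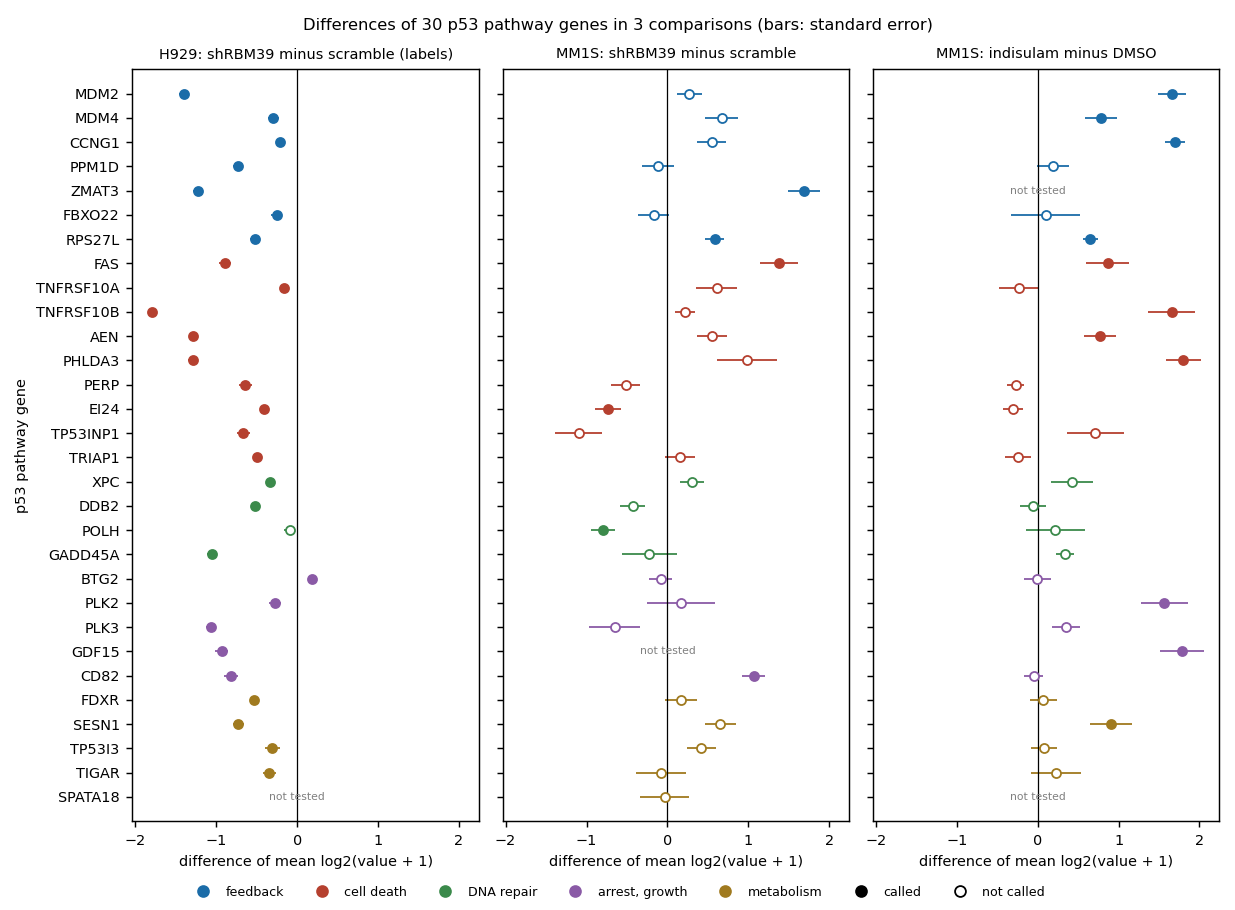
Log2 differences of the p53 pathway genes, grouped by role, for the libraries labelled shRBM39 against scramble in H929, shRBM39 against scramble in MM1S, and indisulam against DMSO in MM1S, with error bars of 1 SE and filled points for genes past the adjusted p of 0.05. In H929 27 genes lie significantly below 0, beside 48.1% of all genes, while with indisulam 11 lie significantly above it, beside 8.47%, and none below, beside 21.5%.

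The group of feedback genes includes regulators that keep p53 in check. Among those tested with indisulam, MDM2 and CCNG1 had the largest log2 differences. MDM2, the ubiquitin ligase that degrades p53, measured 332, 258 and 204 TPM in indisulam-treated cells, against 77.7, 89.9 and 76.9 TPM in DMSO cells, with a log2 difference of 1.66 (SE 0.175, adjusted p = 7.89e-04 by limma). Each treated library was far above every DMSO library. In the MM1S knockdown it measured 237 and 207 TPM in shRBM39 cells, against 205 and 164 TPM in scramble cells, without a call, with a log2 difference of 0.27 (SE 0.159, adjusted p = 0.297 by limma). The H929 values ran the other way, at 50.6, 52.8 and 49.2 FPKM in the libraries labelled shRBM39, against 137, 126 and 147 FPKM in those labelled scramble, with a log2 difference of -1.40 (SE 0.0543, adjusted p = 2.16e-10 by limma). CCNG1 encodes cyclin G1, which recruits a phosphatase to MDM2. Its level was 232, 188 and 171 TPM in indisulam-treated cells, against 58.7, 59.5 and 60.4 TPM in DMSO cells, with no overlap between groups and a log2 difference of 1.70 (SE 0.122, adjusted p = 2.01e-04 by limma). In shRBM39 cells of MM1S, 181 and 132 TPM stood against 111 and 100.5 TPM in scramble cells, a difference of 0.54 that did not pass the test (limma adjusted p = 0.115). MDM4, the MDM2 relative that masks the activation domain of p53, was at 22.9, 21.1 and 14.3 TPM in indisulam-treated cells, against 10.2, 10.7 and 11 TPM in DMSO cells, with a log2 difference of 0.78 (SE 0.196, adjusted p = 0.023 by limma). The third treated library was the lowest of the treated ones for all 3 genes, and none of them overlapped with DMSO.

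ZMAT3, a zinc-finger RNA-binding protein that acts in p53-dependent tumour suppression, carried the largest difference among the called genes of the MM1S knockdown. It measured 14.8 and 16.2 TPM in shRBM39 cells, against 4.79 and 3.5 TPM in scramble cells, a log2 difference of 1.69 (SE 0.199, adjusted p = 0.016 by limma). With indisulam it was near the limit of the filter and was not tested, at 1.88, 1.81 and 0.8 TPM in indisulam-treated cells, against 0.29, 0.28 and 0.33 TPM in DMSO cells, although the groups did not overlap. In H929 its level was 2.54, 2.85 and 2.85 FPKM in the libraries labelled shRBM39, against 8.03, 7.41 and 7.85 FPKM in those labelled scramble, with a log2 difference of -1.23 (SE 0.0664, adjusted p = 3.92e-09 by limma). RPS27L, a ribosomal protein gene induced by p53, was called in all 3 comparisons. Its levels were 162 and 169 TPM in shRBM39 cells, against 107 and 113 TPM in scramble cells, with a log2 difference of 0.58 (SE 0.116, adjusted p = 0.0425 by limma). They were 99.4, 95.1 and 87.5 TPM in indisulam-treated cells, against 58.8, 62.1 and 57.4 TPM in DMSO cells, with a log2 difference of 0.65 (SE 0.0928, adjusted p = 0.00243 by limma). In H929 the gene was lower, at a log2 difference of -0.52 (SE 0.0582, adjusted p = 3.12e-06 by limma), with 8.27, 8.5 and 8.85 FPKM in the libraries labelled shRBM39 against 13.2, 12.1 and 12.8 FPKM in those labelled scramble. RPS27L has a close relative, RPS27, with which it may share reads, so its level is uncertain. PPM1D, the phosphatase that switches off p53 signalling, and FBXO22, a ubiquitin ligase subunit, were not called in either MM1S comparison. PPM1D measured 5.17, 5.24 and 3.48 TPM in indisulam-treated cells, against 4.3, 3.54 and 3.86 TPM in DMSO cells. FBXO22 measured 19.9, 16.6 and 5.61 TPM in indisulam-treated cells, against 8.85, 12.6 and 13.7 TPM in DMSO cells. In both, the third treated library was below all others. Without it both were called higher with indisulam. The log2 differences were then 0.34 for PPM1D (limma adjusted p = 0.0303) and 0.61 for FBXO22 (limma adjusted p = 0.0238). In H929 the log2 difference was -0.74 (SE 0.0563, adjusted p = 9.37e-08 by limma) for PPM1D and -0.25 (SE 0.0661, adjusted p = 0.00368 by limma) for FBXO22.

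**Figure D2:**
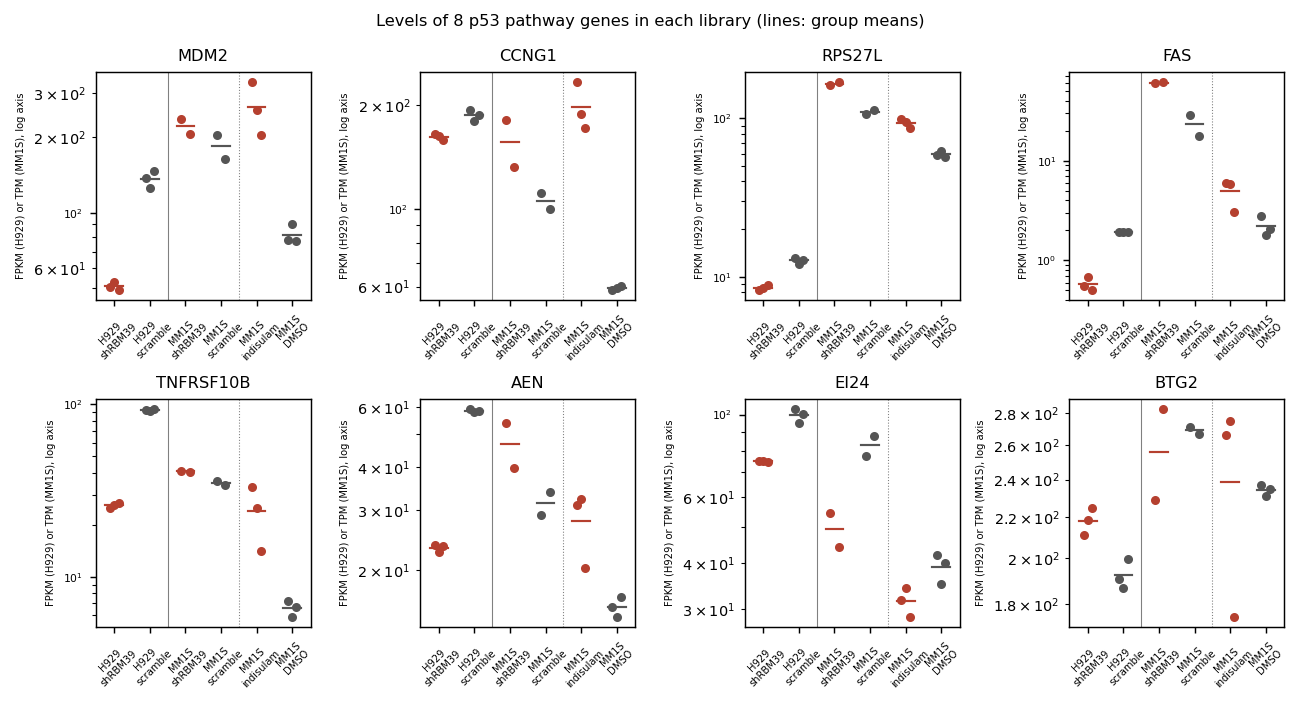
Levels of selected p53 pathway genes in every library on a log axis, in FPKM for H929 and TPM for both MM1S comparisons, with points for libraries and short lines for group means. The tables were normalized separately, so within a panel levels compare only between the groups of the same comparison. MDM2 reached 204 to 332 TPM with indisulam against 76.9 to 89.9 TPM with DMSO.

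Among the genes of death receptors and apoptosis, FAS, the CD95 receptor that triggers caspases on binding its ligand, was called higher in both MM1S comparisons. It measured 60.4 and 61.1 TPM in shRBM39 cells, against 28.8 and 17.9 TPM in scramble cells, with a log2 difference of 1.38 (SE 0.235, adjusted p = 0.0306 by limma). In the indisulam experiment it measured 6.05, 5.89 and 3.06 TPM in indisulam-treated cells, against 2.78, 1.81 and 2.08 TPM in DMSO cells, and its log2 difference was 0.86 (SE 0.262, adjusted p = 0.0446 by limma). The third treated library lay just above the highest DMSO library, and without it the log2 difference was 1.12 (limma adjusted p = 6.13e-04). In H929 FAS was scarce, at 0.548, 0.681 and 0.505 FPKM in the libraries labelled shRBM39, against 1.92, 1.95 and 1.92 FPKM in those labelled scramble, with a log2 difference of -0.89 (SE 0.072, adjusted p = 1.51e-07 by limma). TNFRSF10B, the TRAIL receptor DR5, measured 33.3, 25 and 14.1 TPM in indisulam-treated cells, against 7.19, 5.84 and 6.7 TPM in DMSO cells, with a log2 difference of 1.65 (SE 0.296, adjusted p = 0.00641 by limma). The treated libraries differed more among themselves than the DMSO libraries did, and all lay above them. The shRBM39 libraries of MM1S, at 40.9 and 40.8 TPM against 35.9 and 34 TPM in scramble cells, differed by 0.22 on the log2 scale, which did not pass the test (limma adjusted p = 0.278). On the scale of log2(FPKM + 1), TNFRSF10B had the largest H929 difference among the 30 genes, at 25, 26 and 26.9 FPKM in the libraries labelled shRBM39, against 92.4, 91.9 and 93.8 FPKM in those labelled scramble, with a log2 difference of -1.80 (SE 0.0434, adjusted p = 6.39e-12 by limma). Without the added 1, the ratio of group means was 0.280 for TNFRSF10B and 0.163 for the lowly expressed GDF15. TNFRSF10A, the TRAIL receptor DR4, did not pass the test in either MM1S comparison, at 9.72, 13 and 6.36 TPM in indisulam-treated cells, against 10.9, 9.94 and 12.7 TPM in DMSO cells.

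PHLDA3, which restrains the survival kinase AKT, had the largest log2 difference among the genes called with indisulam. Its values were 7.49, 6.39 and 6.13 TPM in indisulam-treated cells, against 1.82, 1.08 and 0.8 TPM in DMSO cells, with a log2 difference of 1.80 (SE 0.213, adjusted p = 0.00125 by limma). In the MM1S knockdown the shRBM39 libraries disagreed in size, at 18 and 8.27 TPM in shRBM39 cells, against 6.52 and 5 TPM in scramble cells, and the difference of 0.98 was not called (limma adjusted p = 0.14). AEN, a nuclease that takes part in apoptosis, measured 31.1, 32.4 and 20.3 TPM in indisulam-treated cells, against 15.7, 14.6 and 16.7 TPM in DMSO cells, with a log2 difference of 0.77 (SE 0.196, adjusted p = 0.0247 by limma). Both genes were lower in H929. PHLDA3 measured 14.6, 15.8 and 16.7 FPKM in the libraries labelled shRBM39, against 39.5, 38.7 and 41.4 FPKM in those labelled scramble, with a log2 difference of -1.29 (SE 0.0563, adjusted p = 6.16e-10 by limma), and AEN measured 23.8, 22.6 and 23.5 FPKM in the libraries labelled shRBM39, against 59, 58 and 58.3 FPKM in those labelled scramble, with a log2 difference of -1.29 (SE 0.0439, adjusted p = 9.70e-11 by limma). EI24, an endoplasmic reticulum protein linked to autophagy, was the only death gene called lower in the MM1S knockdown, at 54.5 and 44.1 TPM in shRBM39 cells, against 77.3 and 87.8 TPM in scramble cells, with a log2 difference of -0.74 (SE 0.158, adjusted p = 0.0484 by limma). It lay below DMSO in all indisulam libraries too, at 31.8, 34.2 and 28.6 TPM in indisulam-treated cells, against 42, 35.2 and 40.0 TPM in DMSO cells, without a call (limma adjusted p = 0.109). PERP, a desmosome protein with a part in apoptosis, was at 35 and 48.5 TPM in shRBM39 cells, against 58.3 and 60.5 TPM in scramble cells, with no overlap and no call (limma adjusted p = 0.126). It showed the same layout with indisulam, at 39.4, 41.6 and 36.3 TPM in indisulam-treated cells, against 47.3, 47.1 and 47.8 TPM in DMSO cells (limma adjusted p = 0.0806), and was called lower without the third treated library (log2 difference -0.22, limma adjusted p = 0.015). TP53INP1, which promotes p53 phosphorylation and autophagy, depended on that library. Its values were 72, 65.5 and 26.4 TPM in indisulam-treated cells, against 31.2, 28.5 and 30.8 TPM in DMSO cells, and the log2 difference without the third treated library was 1.16 (limma adjusted p = 3.12e-05), against 0.71 with it (limma adjusted p = 0.166). In the knockdown TP53INP1 was at 35 and 55.9 TPM in shRBM39 cells, against 116 and 78.7 TPM in scramble cells, with no overlap and no call (limma adjusted p = 0.0705). TRIAP1, a small inhibitor of apoptosis, overlapped between groups in both MM1S comparisons.

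Of the repair genes, POLH alone passed the test in an MM1S comparison with all libraries. XPC and DDB2, which recognise damaged bases for nucleotide excision repair, did not pass the test in either MM1S comparison. With indisulam XPC measured 26.8, 26 and 13.7 TPM in indisulam-treated cells, against 16.8, 14.4 and 15.6 TPM in DMSO cells, and DDB2 measured 32, 26.9 and 22.2 TPM in indisulam-treated cells, against 26.4, 27.7 and 29.7 TPM in DMSO cells. In H929 both were lower. There XPC measured 25.3, 25.1 and 26.5 FPKM in the libraries labelled shRBM39, against 31.7, 31.8 and 34.6 FPKM in those labelled scramble, and DDB2 measured 54.1, 53.5 and 57.6 FPKM in the libraries labelled shRBM39, against 78.2, 77.2 and 83.8 FPKM in those labelled scramble. With indisulam, XPC was called without the third treated library (log2 difference 0.72, limma adjusted p = 3.50e-04) and DDB2 was not (limma adjusted p = 0.532). POLH, a polymerase that copies past ultraviolet lesions, was lower in the MM1S knockdown, at 16.8 and 17 TPM in shRBM39 cells, against 32.5 and 27.9 TPM in scramble cells, with a log2 difference of -0.80 (SE 0.145, adjusted p = 0.0353 by limma). With indisulam it measured 13.4, 13.2 and 4.58 TPM in indisulam-treated cells, against 8.09, 7.96 and 7.9 TPM in DMSO cells. So 2 treated libraries were above every DMSO library and the third below them. Without the third, POLH was called higher (log2 difference 0.67, limma adjusted p = 3.63e-04), opposite to its knockdown call. GADD45A, a stress protein that binds PCNA and activates stress kinases, was at 36.5, 34.8 and 32.7 TPM in indisulam-treated cells, against 25.7, 27.3 and 28.9 TPM in DMSO cells, with no overlap and no call (limma adjusted p = 0.0591). Without the third treated library GADD45A was called higher (log2 difference 0.38, limma adjusted p = 0.00397). It was lower in H929, at 28.9, 30.7 and 30.3 FPKM in the libraries labelled shRBM39, against 62.2, 57.7 and 70.0 FPKM in those labelled scramble, with a log2 difference of -1.05 (SE 0.0621, adjusted p = 9.33e-09 by limma).

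**Figure D3:**
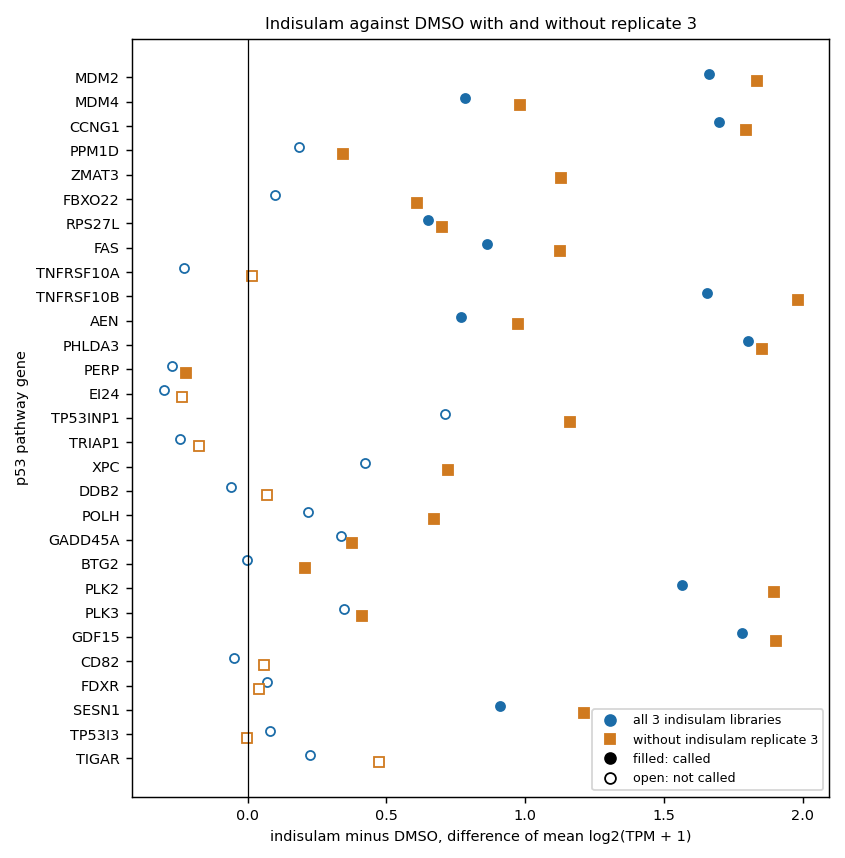
Log2 differences between indisulam and DMSO for the p53 pathway genes with all 3 treated libraries and without the third, with filled points for genes past the adjusted p of 0.05. The count of genes called higher is 11 with the third library and 20 without it, beside 8.47% and 37.9% of all genes. SPATA18 was not tested in either setting and ZMAT3 only without the third library.

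Of the arrest and growth genes, PLK2, a polo-like kinase of the centriole cycle, was called higher with indisulam, at 20.5, 20.2 and 9.71 TPM in indisulam-treated cells, against 5.13, 5.11 and 4.01 TPM in DMSO cells, with a log2 difference of 1.57 (SE 0.293, adjusted p = 0.00769 by limma). In the knockdown its scramble libraries lay on either side of the shRBM39 ones, at 24.4 and 17 TPM in shRBM39 cells, against 11.6 and 27.9 TPM in scramble cells. GDF15, a secreted stress cytokine of the TGF-beta superfamily, was close to 0 in DMSO cells. It measured 4.49, 1.76 and 2.02 TPM in indisulam-treated cells, against 0.05, 0.07 and 0 TPM in DMSO cells, a fitted difference of 1.78 (SE 0.269, adjusted p = 0.00324 by limma), a value that depends on the pseudocount since 1 DMSO library was listed at 0. In H929 it was also lowly expressed, at 0.206, 0.166 and 0.283 FPKM in the libraries labelled shRBM39, against 1.11, 1.56 and 1.33 FPKM in those labelled scramble, with a log2 difference of -0.94 (SE 0.0847, adjusted p = 4.37e-07 by limma). CD82, a tetraspanin known as a metastasis suppressor, was called in the knockdown, at 84.2 and 102 TPM in shRBM39 cells, against 43.7 and 43.9 TPM in scramble cells, with a log2 difference of 1.06 (SE 0.144, adjusted p = 0.0203 by limma). With indisulam it overlapped between groups, at 69.5, 72.4 and 56.3 TPM in indisulam-treated cells, against 69.4, 66.5 and 68.1 TPM in DMSO cells. BTG2, an antiproliferative gene that promotes the removal of poly(A) tails, was the only one of the 30 genes that was higher in H929 libraries labelled shRBM39. It measured 211, 219 and 225 FPKM in the libraries labelled shRBM39, against 191, 187 and 199.7 FPKM in those labelled scramble, with a log2 difference of 0.18 (SE 0.0416, adjusted p = 0.00157 by limma), and was among the most abundant of these transcripts in every group. In the indisulam experiment its values were 266, 275 and 175 TPM in indisulam-treated cells, against 237, 231 and 235 TPM in DMSO cells. Without the third treated library BTG2 was called higher there (log2 difference 0.21, limma adjusted p = 0.00722). PLK3, a stress-responsive polo-like kinase, was lower in H929, at 21, 23.1 and 23.1 FPKM in the libraries labelled shRBM39, against 47.9, 45.6 and 50.6 FPKM in those labelled scramble, with a log2 difference of -1.07 (SE 0.0543, adjusted p = 2.23e-09 by limma). It was not called in MM1S with all libraries. Without the third indisulam library it was called higher with indisulam (log2 difference 0.41, limma adjusted p = 0.0272).

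In the group of metabolic and mitochondrial targets, SESN1, a sestrin that restrains the growth kinase mTORC1, was called with indisulam, at 68.9, 52.9 and 31.8 TPM in indisulam-treated cells, against 25.6, 26.1 and 24.8 TPM in DMSO cells, with a log2 difference of 0.91 (SE 0.258, adjusted p = 0.0359 by limma). The knockdown libraries lay above scramble as well, at 54 and 75.7 TPM in shRBM39 cells, against 39.8 and 40.9 TPM in scramble cells, without a call, with a log2 difference of 0.65 (SE 0.188, adjusted p = 0.084 by limma). FDXR, which passes electrons to mitochondrial cytochromes, TP53I3, a quinone oxidoreductase, and TIGAR, which lowers glycolytic flux, passed the test in neither MM1S comparison. With indisulam FDXR measured 6.08, 5.63 and 6.29 TPM in indisulam-treated cells, against 5.34, 6.68 and 5.08 TPM in DMSO cells, and TP53I3 10.7, 10.1 and 12.5 TPM in indisulam-treated cells, against 9.2, 11.1 and 10.9 TPM in DMSO cells. SPATA18, which takes part in mitochondrial quality control, was at most 0.12 TPM in the indisulam experiment, and was not called in the knockdown. In H929 the log2 difference was -0.54 (SE 0.05, adjusted p = 5.60e-07 by limma) for FDXR and -0.73 (SE 0.0705, adjusted p = 8.55e-07 by limma) for SESN1. There TP53I3 measured 3.39, 3.49 and 3.47 FPKM in the libraries labelled shRBM39, against 4.16, 3.91 and 5.57 FPKM in those labelled scramble, and TIGAR 1.48, 1.65 and 1.6 FPKM in the libraries labelled shRBM39, against 2.53, 1.93 and 2.39 FPKM in those labelled scramble.

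Across the 3 comparisons, 8 genes were lower in H929, not called in the MM1S knockdown and higher with indisulam, namely MDM2, MDM4, CCNG1, TNFRSF10B, AEN, PHLDA3, PLK2 and SESN1. RPS27L and FAS were lower in H929 and higher in both MM1S comparisons. Another 13 genes were lower in H929 and called in neither MM1S comparison with all libraries. The share of all genes with each of these patterns was not counted, so the counts describe these genes only. Taken singly, 48.1% of all genes were lower in H929. In the knockdown 4.03% were higher and 6.38% lower, and with indisulam 8.47% were higher and 21.5% lower. The tables were normalized separately, and no test was made across them.

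Other genes of the pathway were taken from lists of 23 p53 regulators, 40 further targets and 25 genes repressed through p21 and the DREAM complex. Among further targets, 22 of 28 tested were lower in H929 and 2 higher, beside 48.1% and 24.1% of all genes. In the MM1S knockdown 5 of 34 were higher and 3 lower, beside 4.03% and 6.38%. With indisulam 4 of 32 were higher and 9 lower, near the 8.47% and 21.5% of all genes. Leaving out the third indisulam library gave 13 higher and 11 lower, beside 37.9% and 27.9%. The medians of the log2 differences were -0.71 in H929, 0.31 in the knockdown and -0.02 with indisulam, beside -0.13, -0.00053 and -0.05 over all genes. CDKN1A, the p21 inhibitor of cyclin-dependent kinases, averaged 126 ± 3.74 FPKM in the libraries labelled shRBM39 and 748 ± 32.6 FPKM in those labelled scramble (SD, n = 3 each), a log2 difference of -2.56 (SE 0.0432, adjusted p = 1.96e-13 by limma). With indisulam it averaged 23.7 ± 6.33 TPM in indisulam-treated cells and 13.8 ± 0.929 TPM in DMSO cells (SD, n = 3 each), a log2 difference of 0.71 (SE 0.201, adjusted p = 0.0351 by limma); in the knockdown it was not called, with a log2 difference of 0.49 (SE 0.246, adjusted p = 0.234 by limma). For MM1S it was named after its values were seen. BBC3, the BH3-only death protein PUMA, was higher in both MM1S comparisons. It averaged 26.1 ± 8.46 TPM in shRBM39 cells and 7.46 ± 0.714 TPM in scramble cells (SD, n = 2 each), a log2 difference of 1.65 (SE 0.249, adjusted p = 0.0241 by limma). In the indisulam experiment it averaged 23.5 ± 3.16 TPM in indisulam-treated cells and 11.1 ± 1.5 TPM in DMSO cells (SD, n = 3 each), a log2 difference of 1.01 (SE 0.167, adjusted p = 0.00456 by limma). In H929 BBC3 was lower, averaging 3.64 ± 0.398 FPKM in the libraries labelled shRBM39 and 17.6 ± 1.05 FPKM in those labelled scramble (SD, n = 3 each). SFN, the checkpoint protein 14-3-3 sigma, was lower in MM1S with shRBM39, at -1.07 (SE 0.213, adjusted p = 0.0426 by limma) on the log2 scale. With indisulam it measured 0.25, 0.18 and 0.09 TPM in indisulam-treated cells, against 1.86, 3.11 and 3.15 TPM in DMSO cells, and it passed the filter through the DMSO libraries alone.

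Among the regulators, the checkpoint kinase CHEK1 was lower in both MM1S comparisons, with log2 differences of -1.54 (SE 0.177, adjusted p = 0.0158 by limma) for shRBM39 and -1.75 (SE 0.236, adjusted p = 0.00205 by limma) for indisulam. Of 21 regulators tested, 1 was higher and 4 lower in each MM1S comparison, beside 4.03% and 6.38% of all genes in the knockdown and 8.47% and 21.5% with indisulam. Without the third indisulam library 10 were higher and 5 lower, beside 37.9% and 27.9%. In H929 7 were higher and 6 lower, beside 24.1% and 48.1%. PPP1R13L, among those higher in H929, passed the filter through the libraries labelled shRBM39 alone. TP73, among those lower with indisulam, passed it through the DMSO libraries alone. The genes repressed through p21 and DREAM, which drive the cell cycle, were lower in MM1S, with 24 of 25 called lower in the knockdown and 18 of 25 with indisulam, beside 6.38% and 21.5% of all genes, and none called higher. Leaving out the third indisulam library gave 21 lower and 2 higher, beside 27.9% and 37.9%. The 24 knockdown calls became 23 without the first shRBM39 library and 0 without any other single library. Their median log2 differences were -1.66 in the knockdown and -1.64 with indisulam, beside -0.00053 and -0.05 over all genes. MYBL2, a cell cycle transcription factor of that list, averaged 11.9 ± 1.69 TPM in indisulam-treated cells and 105 ± 3.66 TPM in DMSO cells (SD, n = 3 each), a log2 difference of -3.05 (SE 0.13, adjusted p = 4.31e-05 by limma). In H929 8 of these genes were higher and 12 lower, beside 24.1% and 48.1% of all genes, and their median of -0.12 was close to the -0.13 over all genes.

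The RIP addressed which transcripts were recovered with RBM39. Without replicates no test was made, and a ratio of at least 2-fold on FPKM + 1 was used to describe them. A filter of at least 1 FPKM in either library kept 29 of the 30 genes and 10946 of all genes. Of the 29, 10 were at least 2-fold higher in the RBM39 RIP, beside 22.6% of all genes kept. Another 7 were at least 2-fold lower, beside 23.9%, and 12 lay in between. The median log2 ratio was -0.08 over the 29 genes and 0.02 over all genes. RBM39 RNA itself measured 62.1 FPKM in the RBM39 RIP and 127 FPKM in the IgG control. AEN had the highest ratio against a nonzero control, at 56.9 FPKM in the RBM39 RIP and 5.41 FPKM in the IgG control (log2 ratio 3.17). TNFRSF10B measured 28.2 FPKM in the RBM39 RIP and 6.26 FPKM in the IgG control (log2 ratio 2.01). EI24 was the most abundant of the 30 in the RBM39 RIP, at 381 FPKM in the RBM39 RIP and 173 FPKM in the IgG control (log2 ratio 1.13), and the phosphatase gene PPM1D measured 14.8 FPKM in the RBM39 RIP and 3.15 FPKM in the IgG control (log2 ratio 1.93). FBXO22, TNFRSF10A, XPC and FDXR were also higher, with log2 ratios of 1.54, 1.17, 1.35 and 1.12. PHLDA3 and TP53I3, at 7.23 and 2.22 FPKM in the RBM39 RIP, were listed at 0 in the IgG control.

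RPS27L had the lowest ratio against a nonzero RIP value, at 12 FPKM in the RBM39 RIP and 52.4 FPKM in the IgG control (log2 ratio -2.03). CCNG1 measured 27.5 FPKM in the RBM39 RIP and 65 FPKM in the IgG control (log2 ratio -1.21). PERP, PLK2, PLK3 and TIGAR were lower too, with log2 ratios of -1.41, -1.82, -1.65 and -1.30, and SPATA18 was listed at 0 in the RBM39 RIP. MDM2 was nearly level, at 189 FPKM in the RBM39 RIP and 156 FPKM in the IgG control (log2 ratio 0.28). Of the 11 genes called higher with indisulam, 3 were at least 2-fold higher in the RBM39 RIP (TNFRSF10B, AEN and PHLDA3), 3 at least 2-fold lower (CCNG1, RPS27L and PLK2), 4 in between, and GDF15 was listed at 0 in both libraries.

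**Figure D4:**
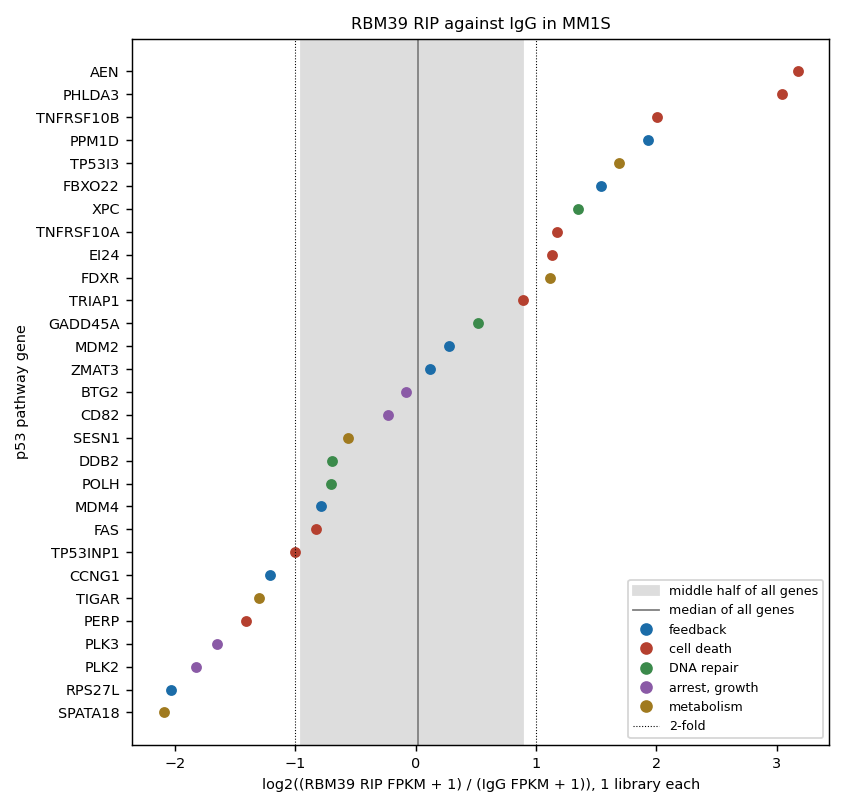
Log2 ratios of the RBM39 RIP over the IgG control, on FPKM + 1, for the 29 p53 pathway genes above 0 in either library, with dotted lines at 2-fold in each direction, a grey band between the quartiles of all genes and their median as a line. PHLDA3, TP53I3 and SPATA18, listed at 0 in one library, are placed by the added 1 FPKM. AEN lies highest among genes with a nonzero control at 3.17 and RPS27L lowest among those with a nonzero RIP value at -2.03, with 1 library per group and no test.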

How the data were processed

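RNA sequencing libraries were made from total RNA with a SMARTER kit, per the labels' protocols. The authors deposited FPKM values (fragments scaled to transcript length and library size) for H929 and for the RIP libraries. The 2 MM1S tables deposited by the authors are named as FPKM, but their columns sum to about 1000000, so they were treated as TPM. The submitters' processing notes name mouse genome builds although the cells are human. In the H929 table, a share of 98.4% of gene symbols is in the human RefSeq list, but which build the values rest on was not settled, so no value is tied to one. The aligner and the counter are not stated, depth in reads is unknown, and strand use in counting is not stated.

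The 30 genes and the other gene lists were chosen with earlier results of these data known. Values were tested as log2(value + 1) with limma 3.58.1 (lmFit, then eBayes with trend and robust options) in R 4.3.3, on the 2 groups of each comparison alone, after keeping genes that reached 1 in at least the size of the smaller group. P-values were adjusted by Benjamini-Hochberg over all genes tested and called at 0.05. A fold on this scale understates the change of low genes. The design had named FPKM for all tables, and the same test was used for TPM. With exact permutation tests of single values, 3 libraries against 3 cannot go below p = 0.1 and 2 against 2 cannot go below 0.333, so none is given. All 30 genes were named, plus RBM39 and, from each other list, up to 3 called genes per direction and comparison by smallest adjusted p. One regulator is not reported here. Of repeated symbols the entry with the highest mean was used. Rows without a gene name, 0.436 to 0.459% of the knockdown totals and 0.174 to 0.237% of the indisulam totals, were left out. TIGAR was matched through its older symbol in the RIP table.

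The labels do not say whether replicate numbers pair libraries, so the main fits were unpaired. The same-number correlations of deviations were 0.129, -0.000441 and 0.0253 in H929, -0.139 for MM1S shRBM39, and 0.138, -0.146 and -0.0241 for indisulam. The same-numbered library was the best partner only for replicate 1 in H929 and replicate 1 with indisulam. With so few libraries per group, these values cannot decide whether libraries are paired. The test was checked on simulated data. Promoter windows are RefSeq's (GRCh38.p14). Alternatives were another pseudocount, another or no filter, median scaling, quantile normalization and plain limma without those options. Further ones were a replicate block, the sum of repeated entries, a minimum log2 change of 1 and leaving out each library. A crossed replicate block and a look at both MM1S control groups were added after the data were seen. Python 3.11.15, pandas 2.3.3 and SciPy 1.17.1 were used.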

Additional observations from a re-analysis of the deposited data

Results flagged for a closer look

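For 14 of the p53 pathway genes, the comparison of shRBM39 with scramble ran in opposite directions in the 2 lines, with every MM1S library labelled shRBM39 above and every H929 library so labelled below its scramble libraries. Of the 9509 genes tested in both tables, 19.4% had this layout. The 14 are all the p53 pathway genes that lay above scramble in MM1S, and 27 lay below in H929. The log2 differences of the feedback genes were MDM2 (0.27 in MM1S and -1.40 in H929), MDM4 (0.67 in MM1S and -0.29 in H929), CCNG1 (0.54 in MM1S and -0.21 in H929), ZMAT3 (1.69 in MM1S and -1.23 in H929) and RPS27L (0.58 in MM1S and -0.52 in H929). Those of the death genes were FAS (1.38 in MM1S and -0.89 in H929), TNFRSF10A (0.61 in MM1S and -0.16 in H929), TNFRSF10B (0.22 in MM1S and -1.80 in H929), AEN (0.55 in MM1S and -1.29 in H929) and PHLDA3 (0.98 in MM1S and -1.29 in H929). The others were XPC (0.30 in MM1S and -0.34 in H929), CD82 (1.06 in MM1S and -0.82 in H929), SESN1 (0.65 in MM1S and -0.73 in H929) and TP53I3 (0.42 in MM1S and -0.31 in H929). Of these 14, 4 were called in MM1S and 14 in H929. The difference between the lines was not tested, since the tables were normalized separately. RBM39 itself also ran in opposite directions, lower in MM1S and higher in H929 libraries labelled shRBM39, and its part in these differences was not tested. If the H929 labels were exchanged, these 14 genes would run the same way in both lines, which follows from how they were picked. PERP, EI24, TP53INP1, DDB2 and PLK3 lay below scramble in both lines as labelled. After an exchange those genes would run in opposite directions. The data cannot settle which labelling holds.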

How the results depend on the processing

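Over all settings, 390 of 428 values kept their direction and side of the threshold in H929, 344 of 404 in the MM1S knockdown and 357 of 415 with indisulam. The settings include summing repeated entries. None of these genes had a repeated entry in the expression tables, so their log2 differences could not change there. The causes of the changes were not tested, apart from what a setting itself removes. Depth in reads is unknown, so it cannot be told which low values are limited by counting, and with 2 libraries per group the MM1S knockdown left few calls.

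In H929 a minimum log2 change of 1 left 0 members higher and 7 lower, and 0 further targets higher and 8 lower. Among all 10360 genes it left 159 higher and 333 lower. Median scaling gave 4 further targets higher, beside 3932 of all genes. POLH reached 0.066 under quantile normalization and 0.071 under median scaling, and TNFRSF10A 0.020 and 0.00069.

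In the MM1S knockdown, leaving out 1 library left only 1 library in its group. RBM39 was at -1.84 to -1.54 in these fits, and the loss of calls in them is described above. No filter left 0 members and 0 further targets in either direction and RBM39 at -1.69 without a call. Limma without trend and robust options left 2 members higher and 0 lower, beside 407 and 667 of all 14122 genes. A pseudocount of 0.1 left 1 member lower, beside 799 of all genes. A minimum log2 change of 1 left 0 members lower, and 2 further targets higher and 1 lower. Among all genes it left 302 higher and 585 lower. BTG2 reached 0.092 under quantile normalization and SPATA18 0.0083 under median scaling. Leaving out 1 library turned BTG2 (-0.23 to 0.070), FDXR (-0.0019 to 0.34), PLK2 (-0.43 to 0.77), SPATA18 (-0.34 to 0.28), FBXO22 (-0.39 to 0.049), GADD45A (-0.73 to 0.28), PPM1D (-0.28 to 0.046), TIGAR (-0.43 to 0.26) and TRIAP1 (-0.069 to 0.38).

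With indisulam, leaving out 1 library gave 7 to 20 members higher and 0 to 1 lower, and RBM39 at -0.056 to 0.24. These fits gave 3 to 13 further targets higher and 4 to 11 lower. Among all genes they gave 353 to 5386 higher and 1496 to 3957 lower. A minimum log2 change of 1 left 6 members higher and 2 further targets lower, beside 527 higher and 979 lower among all 13421 genes. No filter gave 8 members higher, beside 677 of all 28775 genes, and MDM4, FAS, AEN and SESN1 lost their call. Quantile normalization and median scaling each gave 7 further targets higher, beside 3024 and 2587 of all 13421 genes. RBM39 reached 0.40 under quantile normalization. BTG2 reached 0.34 under quantile normalization and 0.0084 under median scaling, and CD82 0.18 and DDB2 0.069 under quantile normalization. Leaving out 1 library turned FBXO22 (-0.22 to 0.61), POLH (-0.012 to 0.67), TIGAR (-0.12 to 0.47), BTG2 (-0.12 to 0.21), CD82 (-0.12 to 0.060), DDB2 (-0.18 to 0.072), TNFRSF10A (-0.45 to 0.014) and TP53I3 (-0.00035 to 0.14).

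Whether the replicate numbers pair the libraries is not known. With a replicate block, the MM1S knockdown had 1 member higher (ZMAT3) and 0 lower, and 1 further target higher and 0 lower. Of all 14122 genes there, 77 were higher and 222 lower. For indisulam the block left 5 further targets lower, beside 2215 of all 13421 genes. With the crossed block, added after the data were seen, the knockdown had 1 member lower (TP53INP1, in place of EI24 and POLH). It had 2 further targets higher and 1 lower, beside 255 higher and 524 lower among all genes.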

Other observations

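The control groups of MM1S stood apart in p53 pathway genes, a pattern looked at after the data were seen. Genes were kept if every library of at least 1 of these control groups reached 1 TPM. ZMAT3 and PHLDA3 were kept through the scramble libraries alone, where they were higher. Of 28 genes, 26 had both scramble libraries above all 3 DMSO libraries, 2 had both below (CD82 and TP53I3), and 0 overlapped. Over 13713 genes, 51.8% had the scramble libraries above and 29.9% below. The median log2 difference, scramble minus DMSO, was 0.92 over the p53 pathway genes and 0.25 over all genes. FAS averaged 23.3 TPM in scramble cells and 2.22 TPM in DMSO cells, TNFRSF10B averaged 34.9 TPM in scramble cells and 6.58 TPM in DMSO cells, and ZMAT3 averaged 4.14 TPM in scramble cells and 0.3 TPM in DMSO cells. MDM2 averaged 184 TPM in scramble cells and 81.5 TPM in DMSO cells. The tables were normalized separately and the groups differ in experiment and in the presence of a hairpin, which cannot be told apart, so no test was made.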
